A study of Mus musculus with 3 samples.

Results

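The 42 genes described here encode the enzymes of glycolysis, their transporters and switches, the oxygen-sensing HIF factors, and other transcripts known to be induced by low oxygen. They were listed by name, and all 42 were found among the 23397 genes of the deposited tables. They fall into 5 roles: 17 glycolytic enzymes, 4 glucose and lactate transporters, 3 switch enzymes of glycolytic flux, 5 HIF factors and oxygen sensors, and 13 other hypoxia targets. RNA was sequenced from mouse embryonic stem cells that had been differentiated as embryoid bodies, which are floating aggregates of such cells, and harvested at day 4.75. The cells were sorted for Tie2 and CD31 and against CD41, a gate for endothelium. Libraries came from 3 genotypes, 1 library each: wild type cells (WT), cells without Scl, now named Tal1 (SclKO), and cells labelled Gata1&2KO (Gata12KO). They shared the same culture with serum, and with LIF before the aggregates were formed, and no group had a further agent. The labels do not give how many clones or cultures each library holds, and no allele beyond the knockouts is named.

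In glycolysis, glucose enters through transporters of the Slc2a family, is phosphorylated and split, and yields pyruvate, which lactate dehydrogenase turns into lactate that leaves through Slc16a carriers. Hypoxia-inducible factors (HIF) pair an alpha subunit, Hif1a or Epas1, with Arnt. In the presence of oxygen the Egln prolyl hydroxylases mark the alpha subunit for destruction, and in low oxygen the pair binds short sites in many glycolytic and other genes. Endothelial cells are known for making much of their energy by glycolysis.

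With 1 library per group there are no replicates and no p-values. Levels are FPKM, a fragment count scaled to transcript length and library size, so that genes can be set side by side. Each is given with its deposited confidence bounds, which come from within 1 library and hold no spread between cultures. For most entries they matched counting error, and for some they were wider. To be called higher or lower, a gene needed at least 1 FPKM in any library, a 2-fold difference or more on the scale log2 (FPKM + 1), and bounds that did not overlap. By that minimum 11080 genes were expressed, and 41 of the 42 members, the exception being Car9. Both words describe these libraries only.

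A few facts of the libraries bear on every value. The bounds imply about 31600000, 28300000 and 50300000 fragments in WT, SclKO and the third library, and between 48 reads (Pfkfb4 in SclKO) and 84133 reads (Ldha in the third library) behind an expressed member. Tal1 had 51.0, 1.59 and 38.7 FPKM in that order. Gata1 had 4.64 and 5.66 FPKM in WT and in the third library and was listed at 0 in SclKO, while Gata2 had 12.0, 5.81 and 44.9. The Gata1 and Gata2 levels thus go against the label of the third library, which is called the library labelled Gata12KO throughout, and every direction drawn from it carries that doubt. These values cover whole transcripts, so that a deleted exon would not show in them. Of 8 endothelial markers all were expressed, with summed levels of 442, 205 and 524 FPKM in WT, SclKO and the library labelled Gata12KO. Of 8 erythroid markers 6 were expressed, summing to 183, 1.64 and 11.5 FPKM, with Hbb-y, Hba-a1 and Hba-a2 at 0 in SclKO and Hba-x at 0 in the third library. The 4 leukocyte markers summed to 21.7, 0.317 and 5.47 FPKM, with Ptprc at 0 in WT and SclKO and Tyrobp at 0 in SclKO. The 5 mesenchyme markers summed to 60.1, 97.9 and 21.8 FPKM and the 7 endoderm and epithelium markers to 94.5, 142 and 46.3 FPKM, with Afp at 0 in SclKO and in the third library. The 6 cardiomyocyte, 4 pluripotent and 3 neural markers summed to at most 10.4, 7.70 and 6.26 FPKM in any library. Itga2b, the gene of CD41, against which the cells were sorted, had 22.8, 0.333 and 17.6 FPKM and was called lower in SclKO than in WT, as Pgk1 and Ankrd37 were. The 4 proliferation markers had 366, 378 and 377 FPKM. In sorted pools, fewer cells of a type and less RNA per cell cannot be told apart, and the part of these marker shifts in the results below was not tested.

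The promoters of 5 called members are shown. Pgk1, Pdk1, Ero1a and Ankrd37 were higher in the library labelled Gata12KO than in SclKO. Hk2 was higher in SclKO and in the library labelled Gata12KO than in WT. Ldhb, Eno1 and Slc2a3 were also called and are not shown. Each sequence is the 250 bases before a RefSeq start on GRCm38.p6, 5′ to 3′ on the strand of the gene. They lie at chrX:106186850-106187099 (Pgk1, forward), chr2:71872974-71873223 (Pdk1, forward, the first of 2 listed starts), chr14:45318573-45318822 (Ero1a, reverse), chr8:45999851-46000100 (Ankrd37, reverse) and chr6:82774455-82774704 (Hk2, reverse). Capitals mark the letters ACGTG or GCGTG, the core of the known HIF binding site, on either strand, so that the reverse strand reads CACGT or CACGC.
Pgk1: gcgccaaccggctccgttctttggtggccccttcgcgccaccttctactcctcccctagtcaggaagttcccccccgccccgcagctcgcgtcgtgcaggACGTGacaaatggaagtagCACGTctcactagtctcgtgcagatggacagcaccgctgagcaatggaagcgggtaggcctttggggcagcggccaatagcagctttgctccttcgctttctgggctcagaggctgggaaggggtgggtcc
Pdk1: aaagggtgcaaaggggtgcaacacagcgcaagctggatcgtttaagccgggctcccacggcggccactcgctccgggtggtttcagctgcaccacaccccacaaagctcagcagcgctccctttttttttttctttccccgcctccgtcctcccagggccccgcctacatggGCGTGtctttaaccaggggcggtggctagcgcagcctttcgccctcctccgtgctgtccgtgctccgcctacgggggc
Ero1a: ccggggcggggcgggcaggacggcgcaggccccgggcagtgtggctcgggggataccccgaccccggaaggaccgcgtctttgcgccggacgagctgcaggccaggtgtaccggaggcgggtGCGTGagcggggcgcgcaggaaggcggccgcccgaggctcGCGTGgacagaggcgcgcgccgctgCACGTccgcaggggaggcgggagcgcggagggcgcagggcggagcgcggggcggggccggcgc
Ankrd37: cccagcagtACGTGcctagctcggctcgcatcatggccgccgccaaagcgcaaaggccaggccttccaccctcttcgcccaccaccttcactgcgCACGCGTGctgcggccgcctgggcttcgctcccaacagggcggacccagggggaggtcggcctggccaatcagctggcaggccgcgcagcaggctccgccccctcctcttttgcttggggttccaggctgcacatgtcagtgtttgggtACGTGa
Hk2: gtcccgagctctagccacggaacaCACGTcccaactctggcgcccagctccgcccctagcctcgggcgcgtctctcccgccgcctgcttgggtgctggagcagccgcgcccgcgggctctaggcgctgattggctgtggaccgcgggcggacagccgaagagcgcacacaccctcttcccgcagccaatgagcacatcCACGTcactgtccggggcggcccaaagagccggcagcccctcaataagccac

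All 5 held the letters at least once. Pgk1 had 2 matches that began 150 and 131 bases before the start, and Hk2 had 2, at 226 and 52 bases. Ankrd37 had 4, at 241, 155, 152 and 6 bases, of which the pair in the middle overlap. Ero1a had 3 and Pdk1 had 1. Of the members, 38 are in the promoter table, and 35 of these (92.1%) held either motif before at least 1 of their listed starts. The same held for 41.5% of all 27025 genes of the table and for 63.3% of the 8721 expressed genes found there. ACGTG alone was in 60.5% of members and 26.0% of those expressed genes, and GCGTG alone in 68.4% and 51.7%. Gpi1, Tpi1 and Eno2 had no match in this window. Of the called members not shown, Ldhb, which was lower in the third library than in SclKO, had 1 match, 126 bases before the start. Eno1 had up to 2, and Slc2a3 is not in the promoter table. Some genes have several listed starts, which gives them more windows for a match, and such letters are a description of sequence, not a site. The members were listed for glycolysis or the response to low oxygen, so that their share is no result about these libraries.

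**Figure D1:**
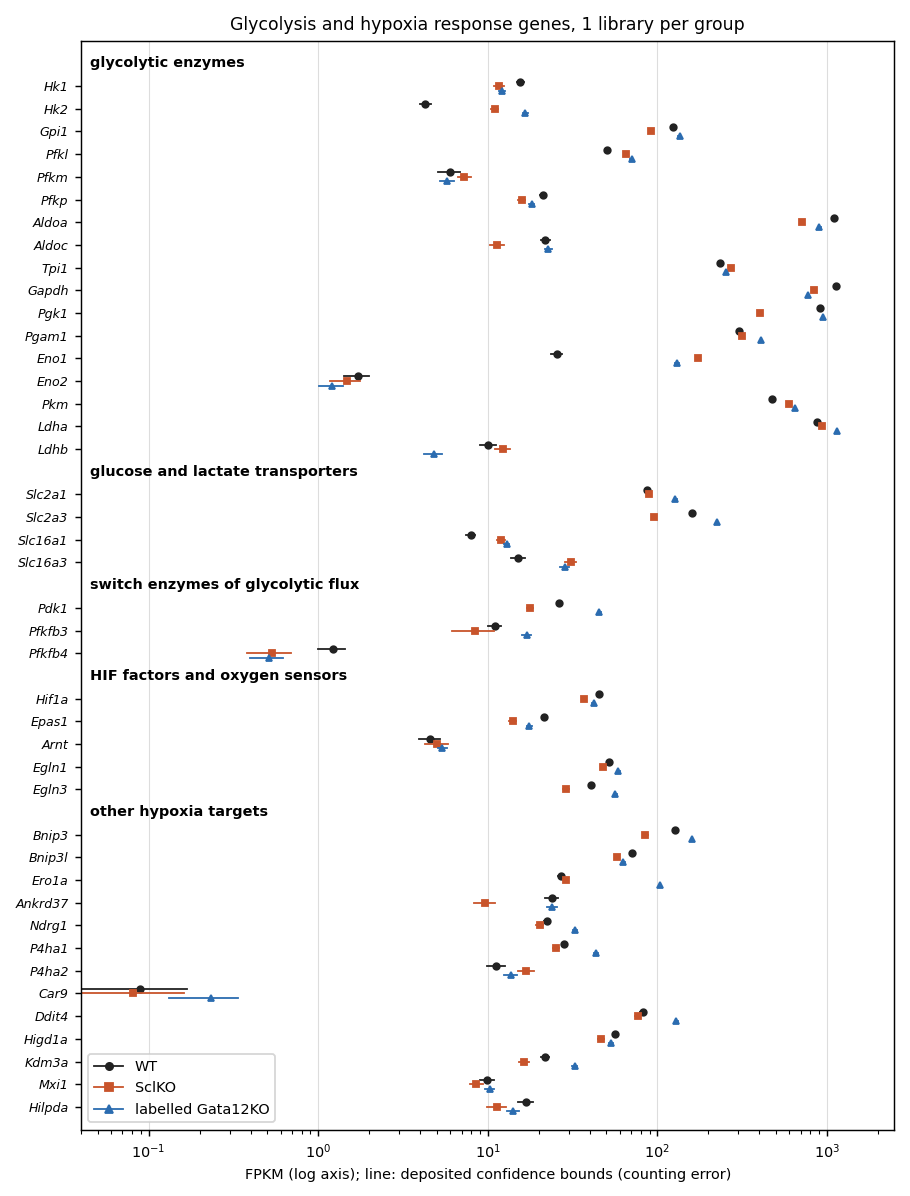
FPKM of the 42 members on a log axis by role, with 1 point per library (WT, SclKO and the library labelled Gata12KO) and lines for the deposited bounds, which cover counting error. Gapdh, Aldoa, Pgk1 and Ldha stood highest in WT, at 872 to 1133 FPKM, and Car9 lay under 1 FPKM in every library, with lower bounds that run off the axis in WT and SclKO.

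In WT, glycolytic enzymes made up the top of the order. Gapdh, the dehydrogenase of the middle of the pathway, had 1133 FPKM in WT (bounds 1121 to 1144), followed by the aldolase Aldoa with 1093 (1078 to 1109), the ATP-forming kinase Pgk1 with 906 (898 to 915), and Ldha, the lactate dehydrogenase subunit of muscle type, with 872 (863 to 881). Neighbours among these 4 had separate bounds. Eno1 stands in this order by its own entry (25.5 FPKM), and both entries at its locus together, described below, had 517 FPKM, above Pkm. Pyruvate kinase Pkm (473 FPKM), the mutase Pgam1 (304), the isomerase Tpi1 (233), the neuronal-type glucose transporter Slc2a3 (160) and the mitophagy receptor Bnip3 (127) came next. Further down, neighbours in the order often had overlapping bounds, and from P4ha1 (28.2 FPKM) through Ero1a, Pdk1, Eno1, Ankrd37, Ndrg1, Aldoc, Kdm3a and Epas1 to Pfkp (21.1) each overlapped the next. The lowest were Hk2 (4.29 FPKM), Eno2 (1.71), Pfkfb4 (1.22) and Car9 (0.0892). Together the glycolytic enzymes summed to 5294 FPKM in WT, 4472 in SclKO and 5501 in the library labelled Gata12KO, or 1.79%, 1.68% and 2.31% of the summed FPKM of transcripts of 300 nt or longer.

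The library labelled Gata12KO against SclKO held the most differences among members, and there 11 of the 12 expressed other hypoxia targets had positive ratios. Of 41 expressed members, 5 were called higher and 1 lower, against 3.38% higher and 3.75% lower (7.14% in all) among the 11080 expressed genes. Ratios were positive for 32 of the 41 members and for 44.2% of all expressed genes. The median log2 ratio was 0.71 over the 12 expressed other hypoxia targets, 0.13 over the 17 glycolytic enzymes and -0.06 over all expressed genes. All 3 comparisons share libraries, so that a high or low value in one library enters 2 of them.

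Ero1a, the oxidase that passes electrons to disulfide-forming enzymes of the endoplasmic reticulum, lies at chromosome 14, 45902762 to 45938247, on the reverse strand of mm9, with 16 exons. WT had 27.0 FPKM of it (26.1 to 27.9), SclKO 28.8 (27.8 to 29.8) and the library labelled Gata12KO 103 (102 to 104). The third library stood apart and the other two were close to each other. Its log2 ratio was 1.80 against SclKO and 1.90 against WT, and its promoter, shown above, held the motif letters 3 times. Its relative Ero1b had 0.734, 0.481 and 0.685 FPKM.

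Pgk1 and Ankrd37 were low in SclKO alone. Pgk1, at chromosome X, 103382463 to 103399038, forward, with 11 exons, stood at 906 FPKM in WT, 405 in SclKO (399 to 411) and 944 in the library labelled Gata12KO (937 to 950). The log2 ratio was 1.22 between the third library and SclKO and -1.16 in SclKO against WT. Ankrd37, an ankyrin repeat gene known as a HIF target, at chromosome 8, 47082262 to 47085204, reverse, with 5 exons, stood at 23.8 FPKM (21.7 to 25.8) in WT, at 9.63 (8.24 to 11.0) in SclKO and at 23.9 (22.3 to 25.5) in the library labelled Gata12KO. In both genes the SclKO bounds lay below those of the other libraries. For Ankrd37 the log2 ratio was 1.23 between the third library and SclKO and -1.22 in SclKO against WT, and the second call ended when the trend of ratios with transcript length was removed (-0.93).

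Slc2a3 and Pdk1 were ordered alike, lowest in SclKO and highest in the library labelled Gata12KO. Slc2a3, at chromosome 6, 122677827 to 122692763, reverse, with 10 exons, stood at 160 FPKM (158 to 162) in WT, at 95.2 (93.3 to 97.1) in SclKO and at 226 (224 to 228) in the library labelled Gata12KO, a log2 ratio of 1.24 between the third library and SclKO. Pdk1, the kinase that shuts off pyruvate dehydrogenase, at chromosome 2, 71711329 to 71741915, forward, with 11 exons, stood at 26.3 FPKM (25.5 to 27.1) in WT, at 17.9 (17.1 to 18.6) in SclKO and at 45.4 (44.5 to 46.3) in the library labelled Gata12KO, a ratio of 1.30. Neither passed the limit against WT in SclKO or in the third library. Endothelial markers were also lower in SclKO: between the third library and SclKO 5 of the 8 were called higher and 0 lower, while all 5 mesenchyme markers were called lower, and their part in these ratios was not tested.

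Several members that were also lowest in SclKO lay below the 2-fold limit. Aldoc, a second aldolase, had 21.9, 11.4 and 22.7 FPKM in WT, SclKO and the library labelled Gata12KO. Kdm3a, a histone demethylase, had 21.7, 16.4 and 32.5, and Egln3, an oxygen sensor that is itself induced by HIF, had 40.7, 28.96 and 56.5. Between the third library and SclKO these 3 had log2 ratios of 0.94, and Pfkfb3, which makes the activator of phosphofructokinase, 0.93 (11.0, 8.45 and 17.0 FPKM). Bnip3 had 127, 84.7 and 160 FPKM, a log2 ratio of 0.91. P4ha1, a collagen prolyl hydroxylase (0.77), the mTORC1 inhibitor gene Ddit4 (0.75) and Ndrg1 (0.67) followed. Ddit4 had 81.8, 76.5 and 129 FPKM, P4ha1 28.2, 25.2 and 43.5, and Ndrg1 22.4, 20.2 and 32.7, so that for these 3 WT lay nearer to SclKO than to the third library. With bounds alone and no limit on size, 29 of 41 members were above and 6 below, against 24.8% and 33.5% of all expressed genes. Bounds narrow as reads increase, and members and all expressed genes were not matched for level.

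Ldhb, the heart-type subunit of lactate dehydrogenase, was the 1 member called lower. It lies at chromosome 6, 142438769 to 142456463, reverse, with 8 exons, and stood at 10.1 FPKM (9.01 to 11.2) in WT, at 12.3 (11.0 to 13.6) in SclKO and at 4.79 (4.20 to 5.37) in the library labelled Gata12KO. The third library was below both others, with a log2 ratio of -1.20 against SclKO and -0.94 against WT. The call against SclKO ended when libraries were rescaled to equal summed FPKM (-0.49). That rescaling took the median of all expressed genes in this comparison to 0.65.

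**Figure D2:**
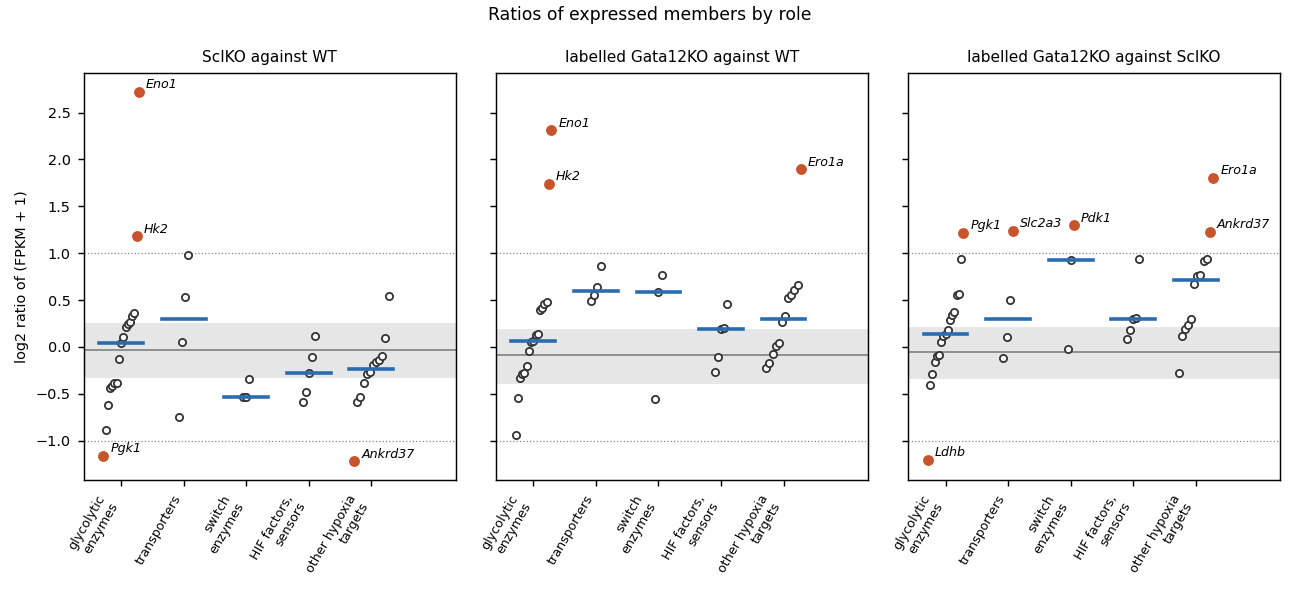
Log2 ratios of (FPKM + 1) for the 41 expressed members by role in the 3 comparisons, where filled points were called higher or lower, blue bars are medians of a role, the grey band and line are the quartiles and median of all expressed genes, and dotted lines mark 2-fold. Between the third library and SclKO, the medians of the 4 roles other than glycolytic enzymes (0.13) lay above the band, from 0.30 to 0.93.

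In the library labelled Gata12KO against WT, 3 of 41 expressed members were called higher and 0 lower, against 0.767% higher and 3.75% lower (4.51% in all) among expressed genes. They were Ero1a, Hk2 and, with a value that depends on how reads were split, Eno1. Ratios were positive for 28 members and for 42.1% of all expressed genes. The 4 transporters all had positive log2 ratios, from 0.49 to 0.87, and 9 of 12 other hypoxia targets did. Medians were 0.60 for transporters, 0.59 for the 3 switch enzymes, 0.30 for other hypoxia targets, 0.19 for HIF factors and sensors, 0.06 for glycolytic enzymes and -0.08 for all expressed genes.

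Hk2, the hexokinase isozyme that is known to be inducible and to sit at mitochondria, was higher in SclKO and in the library labelled Gata12KO than in WT. It lies at chromosome 6, 82675021 to 82724448, reverse, with 18 exons. Its level was 4.29 FPKM (3.97 to 4.61) in WT, 11.0 (10.4 to 11.5) in SclKO and 16.7 (16.2 to 17.2) in the library labelled Gata12KO, with no overlap between any pair. The log2 ratio to WT was 1.18 in SclKO and 1.74 in the third library. Hk1, the housekeeping isozyme, had 15.6, 11.7 and 12.2 FPKM, so that Hk2 made up 21.6% of the summed FPKM of Hk1, Hk2, Hk3 and Hkdc1 in WT, 48.5% in SclKO and 57.7% in the library labelled Gata12KO. Hk3 was listed at 0 in every library.

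The Eno1 entry stood at 25.5 FPKM (23.6 to 27.5) in WT, at 174 (169 to 179) in SclKO and at 131 (128 to 134) in the library labelled Gata12KO, log2 ratios of 2.72 and 2.31 to WT. These calls were not kept when the locus was taken as a whole. Eno1 encodes the main enolase, lies at chromosome 4, 149611306 to 149622982, forward, and has 12 exons. The deposited tables place the accession of its near-identical copy Eno1b at the same locus with 12 exons, where it had 491, 304 and 373 FPKM and lower bounds of 0, and again at its own locus on chromosome 18, with 662, 777 and 776 FPKM. The entries at the Eno1 locus together had 517, 478 and 504 FPKM, log2 ratios of -0.11 in SclKO and -0.035 in the library labelled Gata12KO. With the chromosome 18 copy added, the sums were 1179, 1255 and 1280 FPKM. Of the 50-base windows of the longest Eno1 coding transcript in GENCODE, 72.2% also stand in a transcript of another gene, 70.5% in Eno1b itself, and reads were 50 nt long.

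**Figure D3:**
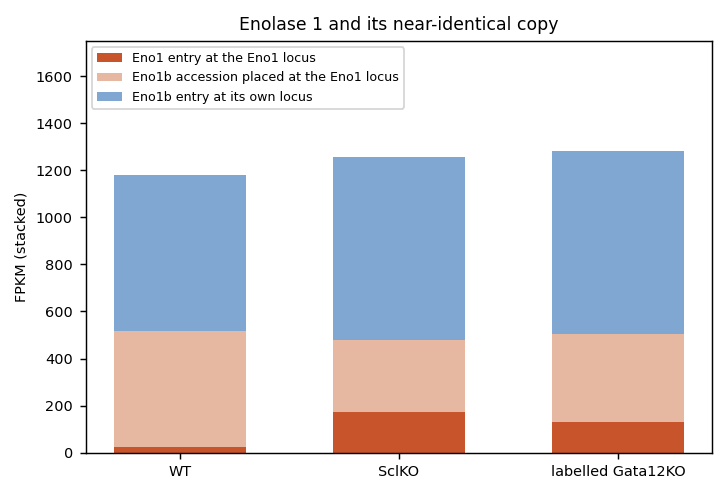
FPKM of the 3 entries of enolase 1 and its copy, stacked, in WT, SclKO and the library labelled Gata12KO. The part of the Eno1 entry grew from 25.5 in WT to 174 and 131 FPKM, while the stack of both entries at the Eno1 locus was 517, 478 and 504 FPKM.

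Such shared windows were counted for every member. They were at least 10% for 10 other members: Gapdh (82.5%), Pgk1 (68.0%, nearly all with Pgk1-rs7), Pgam1 (41.5%), Pkm (34.4%), Ldhb (27.0%), Bnip3l (23.4%), Bnip3 (21.9%), Gpi1 (19.3%), Ldha (16.6%) and Aldoa (13.5%). The levels of these genes, and the calls of Pgk1 and Ldhb, are therefore less certain than their bounds show. Hk2, Slc2a3, Pdk1, Ero1a and Ankrd37 shared no such window with another gene. Aldoart1, a retrocopy of Aldoa, had 16.02, 15.4 and 19.3 FPKM.

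The other glycolytic enzymes of the library labelled Gata12KO lay within the limit against WT on the log2 scale. Ldha had 872, 938 and 1148 FPKM in WT, SclKO and that library, Pkm 473, 595 and 653, and Pgam1 304, 314 and 406, each with bounds in the third library above WT. Gapdh went the other way, with 1133, 834 and 778 FPKM and a log2 ratio of -0.54 to WT. Gpi1, the isomerase of the second step, had 123, 91.7 and 135 FPKM, and the liver-type phosphofructokinase Pfkl 50.4, 64.99 and 70.4. The platelet-type Pfkp had 21.1, 15.9 and 18.1, Tpi1 233, 271 and 254.7, and the neuronal enolase Eno2 1.71, 1.47 and 1.21. Muscle-type Pfkm had 5.97, 7.26 and 5.77 FPKM with overlapping bounds in WT and the third library.

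Among transporters against WT, Slc2a1, the basal glucose transporter, had 86.3, 89.9 and 128 FPKM. Slc16a3, the lactate exporter of glycolytic cells, stood at 15.1 FPKM (13.8 to 16.5) in WT, at 30.9 (28.5 to 33.2) in SclKO and at 28.4 (26.8 to 30.02) in the library labelled Gata12KO, and the bounds of SclKO and of that library lay above WT without reaching the limit on the log2 scale (0.98 and 0.87). The ratio of SclKO to WT passed the limit with a pseudocount of 0.1 FPKM (1.03), with the length trend removed (1.06), and after rescaling by median ratios (1.04) or over transcripts of 300 nt or longer (1.13). Slc16a1, a second lactate carrier, had 7.95, 11.9 and 12.9 FPKM. Slc2a3 made up 64.9% of the summed FPKM of Slc2a1, Slc2a2, Slc2a3 and Slc2a4 in WT, 51.3% in SclKO and 63.8% in the library labelled Gata12KO. Pdk1 made up 64.8%, 55.2% and 77.2% of the summed pyruvate dehydrogenase kinases, and Pfkfb4, a testis-type relative of Pfkfb3, had 1.22, 0.537 and 0.510 FPKM. The SclKO and third-library bounds of Pfkfb4 lay below those of WT, at log2 ratios of -0.53 and -0.56, which the pseudocount of 1 FPKM makes smaller than the ratio of the levels themselves.

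**Figure D4:**
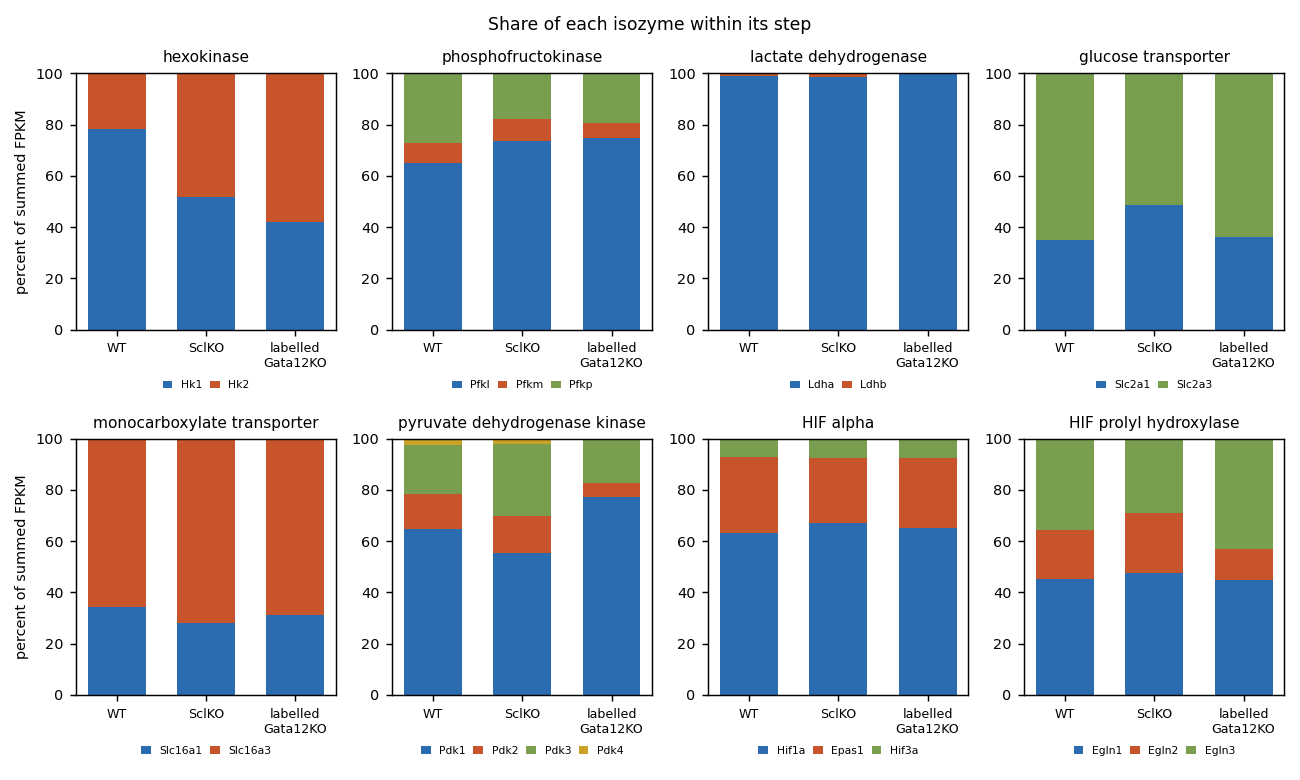
Share of each isozyme or relative in the summed FPKM of its step, in percent, in WT, SclKO and the library labelled Gata12KO. Hk2 went from 21.6% of the hexokinases summed in WT to 48.5% and 57.7%, while Ldha held 98.7% to 99.6% of lactate dehydrogenases, and genes under 1% in every library are not named.

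In SclKO against WT, 2 of 41 expressed members were called higher and 2 lower, against 2.12% and 4.24% (6.36% in all) of expressed genes. The higher members were Hk2 and Eno1 and the lower ones Pgk1 and Ankrd37, all described above. Ratios were positive for 15 members, negative for 26, and positive for 46.7% of all expressed genes. Of other hypoxia targets 10 of 12 had negative log2 ratios, with a median of -0.23. The 3 switch enzymes had -0.34 to -0.53, while the median over all expressed genes was -0.03. Glycolytic enzymes had a median of 0.05, which turned to -0.11 with the Eno1 locus taken as a whole. It turned to -0.08 when libraries were rescaled to equal summed FPKM, which took the median of all expressed genes to -0.14. With bounds alone, 10 members were above and 22 below WT, against 26.3% and 31.6% of all expressed genes, again not matched for level. Aldoa had 1093 FPKM in WT and 712 in SclKO, a log2 ratio of -0.62, and 900 in the library labelled Gata12KO. P4ha2 was the other hypoxia target with the highest ratio (0.54), at 11.3, 16.9 and 13.7 FPKM. The 8 endothelial markers were called lower in 4 cases and higher in 0 in this comparison, and their part in the ratios was not tested.

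The 5 HIF factors and oxygen sensors held no call in any comparison. Of all expressed genes, 6.36% were called in SclKO against WT, 4.51% in the third library against WT and 7.14% against SclKO. At such shares a list of 5 genes is likely to hold none. Hif1a, the alpha subunit found in most cells, had 45.3, 37.1 and 42.1 FPKM in WT, SclKO and the library labelled Gata12KO, and Epas1 (HIF-2 alpha), known for its expression in endothelium, had 21.5, 14.0 and 17.6. For both, the bounds in SclKO and in the third library lay below those in WT. The same held for 31.6% and 37.6% of all expressed genes. In the third library the log2 ratio to WT was -0.10 for Hif1a and -0.27 for Epas1. The median over all expressed genes there was -0.08. Their partner Arnt had 4.58, 5.04 and 5.40 FPKM with overlapping bounds, and Egln1, the main oxygen sensor, 51.5, 47.7 and 58.7. The share of Egln3 in the summed Egln genes was 35.7%, 28.9% and 43.2%. The remaining hypoxia targets held no call. Bnip3l, a mitophagy receptor, had 71.1, 58.0 and 63.1 FPKM, and Higd1a, the gene of a mitochondrial protein, 56.6, 46.7 and 53.5. The lipid droplet gene Hilpda had 16.7, 11.3 and 14.1, and the Myc antagonist Mxi1 9.95, 8.57 and 10.3. Car9, a carbonic anhydrase often used as a hypoxia marker, had 0.0892, 0.0803 and 0.233 FPKM, from 5, 4 and 21 reads.

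Transcript length moved with the ratios of the library labelled Gata12KO. Against WT, the median ratio on the log2 scale was -0.46 for the 2199 shortest expressed genes (312 to 1566 nt) and 0.12 for the 2199 longest (4648 to 23495 nt). The members of these lengths had medians of -0.39 (4 genes) and 0.56 (7 genes). The expressed members had a median length of 2856 nt, close to the 2795 nt of all expressed genes. With the length trend removed, the medians of other hypoxia targets were 0.44 against WT and 0.69 against SclKO, where the median of all expressed genes stayed at -0.08 and -0.06. The calls of Ero1a, Hk2, Pgk1, Slc2a3, Pdk1 and Ldhb held in each comparison where they were made, as did that of Ankrd37 between the third library and SclKO, and Aldoc (1.03) and Bnip3 (1.02) passed the limit against SclKO, as Slc16a3 did in SclKO against WT.

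**Figure D5:**
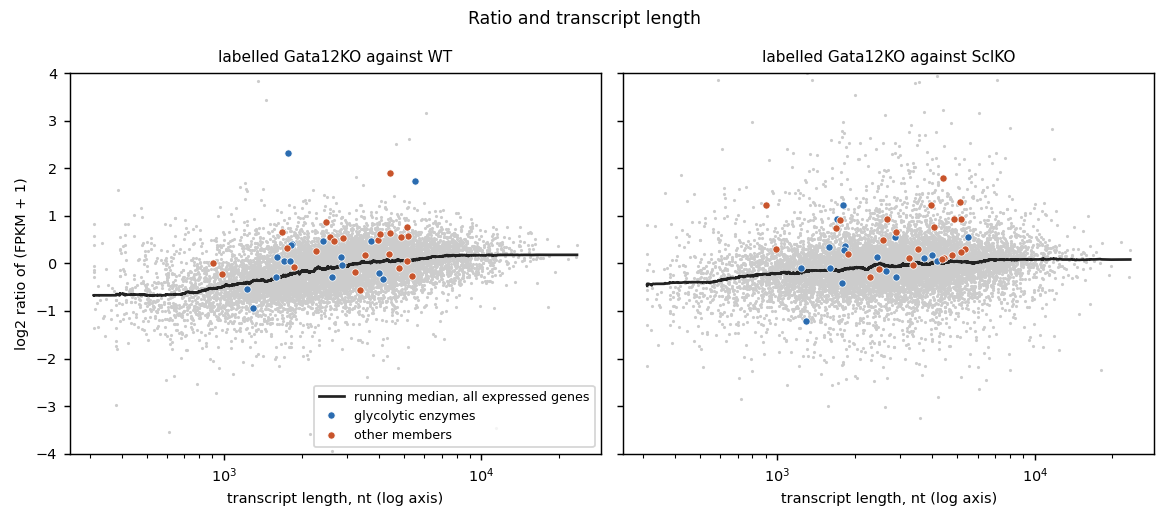
Log2 ratio of (FPKM + 1) against transcript length on a log axis for 10992 expressed genes of 300 nt or longer (grey), with their running median (black), glycolytic enzymes (blue) and other members (orange). The line rises with length, more steeply against WT, and 4 and 6 genes lie outside the axis.

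Further genes of these pathways, outside the 42, were read from lists by function. Of 26 expressed further hypoxia targets, 1 was called higher and 2 lower in SclKO against WT, where 2.12% and 4.24% of all expressed genes were. For the library labelled Gata12KO the counts were 2 and 1 against WT, and 6 and 1 against SclKO, beside the shares of all expressed genes given above (0.767% and 3.75%, and 3.38% and 3.75%). Their medians were -0.13, 0.30 and 0.27. The largest differences were those of Edn1, an endothelial vasoconstrictor peptide gene (7.45, 0.330 and 1.78 FPKM in WT, SclKO and the third library), and Pdgfb, a growth factor of endothelium that recruits mural cells (22.0, 4.45 and 24.6). Both are known endothelial genes, and both were lowest in SclKO, as the summed endothelial markers were, whose part was not tested. Against WT, Edn1 was called lower in the third library (-1.60). There 1 of the 8 endothelial markers was called higher and 0 lower, and their part was not tested. Stc2 (4.88, 3.48 and 10.4), the vasoactive peptide gene Adm (4.92, 2.57 and 7.77) and Pgf (2.61, 4.70 and 1.11) differed between the third library and SclKO, and Ak4 (4.79, 8.91 and 11.9) and the collagen lysyl hydroxylase Plod2 (7.58, 13.8 and 17.2) between the third library and WT. For Plod2 the log2 ratio of 1.08 became 0.99 with the length trend removed, which ended the call. Loxl2 was higher in SclKO (7.09 and 17.9). Vegfa, named here after its values were seen, had 46.5, 37.3 and 76.0 FPKM and a log2 ratio of 1.01 between the third library and SclKO, which became 0.94 without the length trend.

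Of 11 expressed other parts of the HIF pathway, 1 was called, between the third library and SclKO, where 7.14% of all expressed genes were. It was Cited2, a HIF-induced inhibitor of HIF, with 30.7, 60.8 and 18.3 FPKM and a log2 ratio of -1.68. Vhl, which recognises hydroxylated HIF, had 8.80, 8.56 and 8.96 FPKM. Among 11 expressed further isozymes of glycolysis, Eno3, the muscle enolase, was called lower in the library labelled Gata12KO (20.3, 20.0 and 7.96). Its log2 ratio to WT of -1.25 became -0.96 with the length trend removed, which ended that call. The pentose phosphate pathway had Rpia lower in SclKO (4.07 and 1.53) and Pgls lower in the third library (165, 155 and 63.2), with no call for the 6 other genes in each comparison. Without the length trend the call of Rpia (-0.94) and that of Pgls against WT (-0.93) ended. None of the 21 genes of pyruvate dehydrogenase and the citrate cycle, of the 3 expressed gluconeogenesis genes or of the 8 cell death partners of Bnip3 was called in any comparison. Of all expressed genes, 6.36% were called in SclKO against WT, 4.51% in the third library against WT and 7.14% against SclKO. At such shares, lists as short as those of this paragraph hold few calls or none.

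Of 18 expressed genes of the unfolded protein and integrated stress responses, to which Ero1a is also known to belong, Sesn2 was higher in SclKO and in the library labelled Gata12KO than in WT (1.78, 5.64 and 6.34 FPKM). Dnajb9 was lower in SclKO (20.5 and 9.51), at a log2 ratio of -1.04. Trib3 (0.840 and 3.20) and Atf3 (7.27 and 16.4) were higher in the library labelled Gata12KO than in SclKO. The chaperone Hspa5 had 132, 129 and 162 FPKM, and Ddit3 11.6, 12.3 and 11.3. The list had medians of -0.02, 0.29 and 0.17 in SclKO against WT, in the third library against WT and between the third library and SclKO. In the Myc network, Mycn was lower in the third library than in SclKO (12.4 and 5.07), and the 9 other genes held no call. The calls in both lists stand beside the shares of all expressed genes given above (6.36%, 4.51% and 7.14%).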

How the data were processed

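RNA of 3 libraries (WT, SclKO, Gata12KO) was compared. The authors deposited FPKM with lower and upper bounds for 30123 RefSeq entries per library, in files whose source column names Cufflinks. The submitters' processing notes list the builds mm9 and hg19 beside Cuffdiff, Cufflinks 2.0.1 and TopHat2 2.0.4, with no roles. No source used here says whether strand was used. Coordinates are those of the files, given as mm9, the mouse build among those named. Symbols came from RefSeq and GENCODE tables of GRCm38, which named all but 407 of 29610 accessions. Entries that carried another symbol in another library (134) were left out. FPKM and bounds were summed per symbol (Python 3.11.15, pandas 2.3.3), and ratios are log2((FPKM + 1)/(FPKM + 1)). The members and lists were chosen with earlier results of these data known. All members were named, with full values for those called in any comparison, plus up to 4 called genes per further list and comparison. On simulated libraries of 23397 genes the rule recovered 99 of 100 genes changed 2.5-fold in SclKO against WT and 100 of 100 in both other comparisons. The changed genes were drawn from well expressed ones only, the noise was counting error alone, and the change lay above the 2-fold limit. Such recovery therefore checks the rule as written, and changes at low levels were not simulated. Depth came from the bounds, taken as 2 Poisson SD from each value. In WT, SclKO and Gata12KO, 70.7%, 70.3% and 68.2% of the entries considered lay within 1% of that fit. Rescaled libraries keep the WT sum. One further isozyme and 1 further marker are not reported here.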

Additional observations from a re-analysis of the deposited data

How the results depend on the processing

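Of the calls of members, Hk2 in both comparisons with WT, Ero1a, Pgk1, Slc2a3 and Pdk1 held under all 10 alternatives, as did Ankrd37 between the third library and SclKO. Eno1 as the sum of the entries at its locus was chosen after seeing the data. It had log2 ratios of -0.11 (SclKO) and -0.035 (library labelled Gata12KO) against WT. This left 1 member higher in SclKO, beside 2.11% of all expressed genes. A limit of 1.5-fold gave 3 higher and 5 lower members in SclKO against WT, where 7.89% and 11.3% of all expressed genes passed. In the library labelled Gata12KO it gave 9 higher and 1 lower against WT, where 4.77% and 14.0% of all expressed genes passed, and 13 higher against SclKO, where 7.86% did. A pseudocount of 0.1 FPKM gave 2 lower members in that library against WT, Ldhb and Pfkfb4, beside 6.44% of all expressed genes. The highest entry in place of the sum gave 5 higher members there against WT and 8 against SclKO. Of all expressed genes 1.61% and 4.00% were then higher. Rescaling to equal summed FPKM moved the median of all expressed genes by -0.10, 0.59 and 0.70 (SclKO and the third library against WT, then between them), and gave 19 members higher against WT (11.0% of all expressed genes), and 22 higher (18.2%) and 0 lower (1.00%) against SclKO. The share of lower calls among all genes then went from 66.7%, 83% and 52.6% to 76.1%, 7.98% and 5.21%. Relative to the shifted median, other hypoxia targets stood 0.87 higher between the third library and SclKO, against 0.77 without rescaling. Over transcripts of 300 nt or longer the shifts were 0.12, 0.26 and 0.14, and the lower shares 53.1%, 44.1% and 38.9%. In the third library 5 members were then higher against WT (2.35% of all expressed genes) and 10 against SclKO (4.67%). Median ratios shifted the median by 0.05, 0.10 and 0.06. They gave 8 higher members in the third library against SclKO (3.87% of all expressed genes). They brought its lower share against WT to 69.5%. With the length trend removed 1 member was lower in SclKO against WT (4.09% of all expressed genes), since Ankrd37 went to -0.93. In the library labelled Gata12KO 66.9% of calls against WT were then lower. Over the alternatives, all genes called in SclKO against WT numbered 180 to 874 higher and 398 to 1248 lower (235 and 470 as reported). Those of the library labelled Gata12KO numbered 84 to 1257 and 109 to 1550 against WT (85 and 415), and 375 to 2072 and 114 to 1255 against SclKO (375 and 416). The cause of these shifts was not tested. No paired analysis was possible because each group has 1 library, which also left no replicate to leave out. Counting error limits Car9, Pfkfb4 and Eno2 most.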

Other observations

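Of the members, 12 have more than 1 RefSeq entry in the deposited tables, and the 11 of these with at least 5 FPKM in each library were compared entry by entry. The split between entries of a gene is an estimate of the authors' quantification. Its bounds hold no spread between cultures, and for some entries they were wider than counting error. Pkm was given almost wholly to the entry with the downstream one of its pair of alternative exons, known to encode the M2 form, at 98.3%, 97.9% and 98.1% of its FPKM in WT, SclKO and the library labelled Gata12KO. The M1 entry had 8.20, 12.6 and 12.2 FPKM.

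The entry of Aldoa with the farthest upstream start, at chromosome 7, 133943961 on the reverse strand of mm9, stood at 85.2 FPKM (81.2 to 89.2) in WT, at 6.14 (4.98 to 7.29) in SclKO and at 18.2 (11.8 to 24.5) in the library labelled Gata12KO. Its share of the gene was 7.79%, 0.862% and 2.02%. The main Aldoa entry, which starts at 133942768, had 1001, 693 and 868 FPKM. The upstream entry of Pfkfb3, starting at chromosome 2, 11475556, reverse, had 7.33, 1.52 and 10.2 FPKM, or 66.8%, 17.9% and 60.3% of that gene, with SclKO bounds of 0.675 to 2.36. For Pfkm the upstream entry had 3.97 FPKM in WT, near 0 in SclKO and 0.484 in the library labelled Gata12KO, while the next had 1.99, 7.26 and 5.28. For Slc16a3 a minor entry held 10.6% of the gene in WT, 29.7% in SclKO and 23.0% in the third library. In P4ha2 the longer of the pair of entries (2284 nt) held 35.5%, 33.9% and 61.8%.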
